A study of Homo sapiens with 6 samples.

Results

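The genes of the cytoplasmic translation initiation factors (eIFs) and elongation factors (eEFs) were compared between HT29 cells with a control hairpin and HT29 cells with a hairpin against FITM2. They were chosen by name: protein-coding genes whose symbol begins with EIF or EEF and a digit, without the EIF2AK kinases. This gave 67 of the 58978 genes in the count table, of which 19951 are protein-coding. The rule used no measured value. One of the 67 lies on the Y chromosome and is not described. Of the other 66, 62 had reads and 4 had none in any library (EEF1G, EIF4E1B, EEF1AKMT4-ECE2 and EEF1E1-BLOC1S5). With all libraries, EIF4E3 and EIF4EBP3 had too few reads for the test, which left 60 tested genes. The set also holds regulators that share the name, such as the eIF4E-binding proteins and the enzymes that modify eEF1A and eEF2.

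Protein synthesis starts when eIF4F, made of the cap-binding protein eIF4E, the scaffold eIF4G and the helicase eIF4A, recruits an mRNA to a small ribosomal subunit that carries eIF3, eIF1, eIF1A and the initiator tRNA held by eIF2. After the start codon is found, eIF5 triggers GTP hydrolysis by eIF2, eIF5B joins the large subunit, and eIF2B recharges eIF2 with GTP. In elongation, eEF1A brings aminoacyl-tRNAs, eEF2 moves the ribosome along, and eIF5A relieves stalls at difficult peptide bonds. Colorectal cancer cells are known for a high demand on this machinery through mTOR signalling, which frees eIF4E from its binding proteins.

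HT29 is an established human colon adenocarcinoma cell line. All 6 libraries were made from total RNA of cells labelled untreated, 3 from cells with the control hairpin (shCTRL, genotype labelled WT) and 3 from cells with FITM2 knocked down (shFITM2, genotype labelled FITM2 knockdown). FITM2 is a membrane protein of the endoplasmic reticulum that acts in lipid droplet formation. No label says whether the cells were a clone or a pool or whether replicates were separate cultures, so p-values reflect only how much the libraries of a group vary, and that variation may be technical. In bulk RNA, fewer cells expressing a gene and less RNA of it per cell cannot be told apart.

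Libraries held 16964075 to 18855731 counts, and translation factor genes took 2.57 to 2.64% of them. Levels are given as CPM, reads of a gene scaled to the effective size of its library. FITM2 itself was at 13.2, 10.5 and 10.4 CPM in shCTRL and 4.83, 5.98 and 4.95 CPM in shFITM2, or 46.0% of control, and its change on the log2 scale was −1.12 ± 0.16 (SE, adjusted p = 0.000242). By the exact two-sided permutation test p was 0.1, and groups of 3 and 3 cannot give less. All 10 colon epithelial markers were tested, with a summed level of 9748 to 11745 CPM in shCTRL and 13257 to 13986 CPM in shFITM2. In the fit with group as the sole term, called the group fit, 7 of these markers were called higher and 1 lower at an adjusted p under 0.05, against 24.2% and 24.5% of all 14809 tested genes. Of 10 markers of blood, fibroblast and endothelial cells, 3 passed the filter, COL1A2 was at 0 in every library, and the sum of the 10 was 11.1 to 14.6 CPM in shCTRL and 11.7 to 15.2 CPM in shFITM2. Fold changes across genes followed the GC content of the transcripts, with a Spearman correlation of 0.744 over 14635 genes and 0.69 over the 60 tested factor genes. These are points from the same 6 libraries, not independent replicates. On the first principal component, which held 64.7% of the variance, shCTRL replicate 3 lay at −10.7, between the other shCTRL libraries (−38.8 and −49.2) and the shFITM2 libraries (28.7 to 36.4). Each result is therefore given from the group fit and from the same fit with a GC offset, in which a smooth curve of each library's values on GC content was subtracted. The offset reads GC content from 1 transcript of each gene. A second offset, chosen after seeing the data, uses the median GC of the coding transcripts of a gene and is called the median-GC offset, and its value is given for factor genes whose call differs from that with the GC offset. Of the 10 colon epithelial markers, 4 were higher and 2 lower with the GC offset, and 2 higher and 1 lower with the median-GC offset. What part GC content has in any single difference was not tested.

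In the group fit, 30 of the 60 tested factor genes were called at an adjusted p under 0.05 (50%), against 48.7% of all 14809 tested genes, so the share called was close to the background. The direction was uneven: 7 factor genes were higher in shFITM2 (11.7%, against 24.2% of all genes) and 23 were lower (38.3%, against 24.5%). Their median log2 fold change was −0.15, against −0.0002 for all tested genes. With the GC offset, 31 were called (51.7%, against 29.2% of all genes), 8 higher (13.3%, against 11.8%) and 23 lower (38.3%, against 17.4%), with a median of −0.12 against −0.027. With the median-GC offset 7 were higher (11.7%, against 11.8% of all genes) and 25 lower (41.7%, against 17.4%). Factor genes are expressed well above the typical gene, with a median of 116 CPM over the 60 against 20.9 CPM over all tested genes. The CPM of the groups did not overlap for 42 of the 60 genes, against 59.0% of all tested genes.

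Both fits gave a call in the same direction for 16 factor genes. Of these, 4 were higher (7.91% of all genes were) and 12 lower (10.0% of all genes were). The higher ones were EIF4EBP1, EIF4E2, EIF4B and EIF3F. The lower ones were EIF1AX, EIF2S1, EIF2S2, EIF2B1, EIF2B3, EIF3I, EIF3J, EIF3L, EIF3M, EIF4E, EIF5A2 and EIF5AL1. With all libraries, no factor gene was called in opposite directions by the 2 fits. However, 14 calls stood without the GC offset and were missing with it, and 15 the reverse. Among the 14635 tested genes with a GC value, 314 had calls of opposite sign and 1339 were called after the offset but not before. Of all 14809 tested genes, 4269 had a call before the offset and none after it. With the median-GC offset as well, 3 of the 4 higher calls and all 12 lower calls stood, and the exception was EIF3F. Of all tested genes, 1157 were called higher and 1465 lower in both fits. With the median-GC offset as well, 1006 and 1234 of these calls stood. For 9 genes the call held in both fits after each of the 6 libraries was left out in turn: EIF4EBP1, which was higher, and EIF1AX, EIF2S2, EIF2B1, EIF2B3, EIF3J, EIF3L, EIF3M and EIF5A2, which were lower. With the GC offset the highest adjusted p after leaving out a library was 0.0493 for EIF4EBP1 and 0.0486 for EIF2B1, just under the threshold. How many of all tested genes hold in this way was not counted, so this count has no background share beside it.

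**Figure D1:**
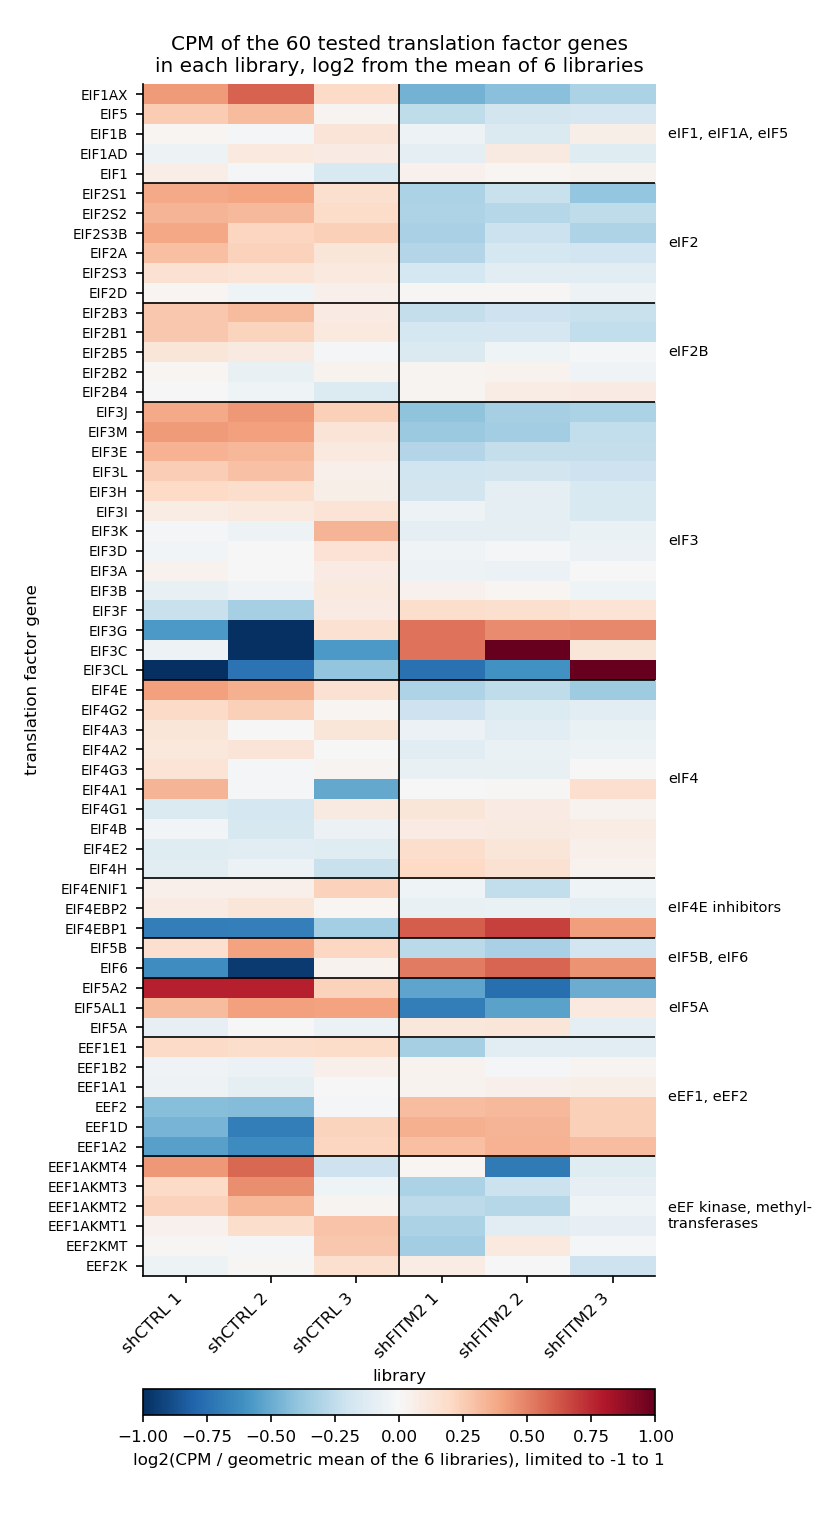
Heat map of the CPM of each of the 60 tested translation factor genes (rows, grouped by role) in each of the 6 libraries (columns), as log2 of the ratio to the geometric mean of the 6 libraries and limited to −1 to 1. EIF1AX, EIF3J and EIF5A2 are among the rows higher in shCTRL, EIF4EBP1 and EIF6 are higher in shFITM2, and shCTRL replicate 3 lies nearest to shFITM2 for EIF6 and EEF1D.

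Leaving out shCTRL replicate 3, the library that lay between the groups, raised the calls to 13 higher and 28 lower of 61 tested factor genes in the group fit. All tested genes then had 59.2% called, 29.6% higher and 29.6% lower. With the GC offset it gave 12 higher and 28 lower, when 37.4% of all genes were called, 15.6% higher and 21.9% lower. EEF1D, not called with all libraries, was then called higher at an adjusted p of 2.85e-15. EIF3G was called higher at 1.89e-10, and also without shCTRL replicate 2, at 0.0323. In the group fit without shCTRL replicate 3, EIF4G1 was called higher, at 0.23 (adjusted p = 1.77e-05), and EIF4A2 lower, at −0.21 (adjusted p = 0.000200). With the GC offset, EIF4G1 was called lower and EIF4A2 higher in each of the 6 fits that leave out a library. These 2 genes were thus called in opposite directions by the 2 fits without that replicate. Without shCTRL replicate 2 the group fit lost the higher calls of EIF4B and EIF3F and gained others, EIF3G among them. Without shFITM2 replicate 3 it lost the same calls and gained others, EIF3C among them. Leaving out shCTRL replicate 1 or shFITM2 replicate 1 or 2 lowered the higher calls. Without shCTRL replicate 1 the group fit called 5 factor genes higher, when 17.8% of all genes were. Without shFITM2 replicate 1 it called 2 (17.1% of all genes), and without shFITM2 replicate 2 also 2 (17.4% of all genes).

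Levels per length, given as TPM (transcript counts divided by gene length and scaled to the same sum in each library), covered a wide range in shCTRL. EEF1A1, the tRNA-delivering elongation factor, stood at 6567 ± 190.4 TPM (SD, n = 3) and gave 45.5 to 48.6% of all reads of the set. EEF2, the translocase, followed at 1488 ± 266 TPM and EEF1B2, a subunit of the exchange factor that recharges eEF1A, at 936 ± 38.8 TPM. The highest initiation factors were EIF4G2 at 574 ± 46.5 TPM and EIF3H at 515 ± 25.97 TPM. They were followed by EIF3I at 438 ± 14.3, EIF4H at 431 ± 26.6, EIF5A at 394 ± 17.4 and EIF2S2 at 386 ± 21.5 TPM. The order of EIF3I and EIF4H, of EIF4H and EIF5A, and of EIF5A and EIF2S2 does not differ beyond their SDs. The cap-binding protein gene EIF4E stood at 22.9 ± 1.99 TPM, a value divided by the length of all its annotated exons, which is long for this gene and lowers the TPM. Low levels were found for EIF5A2 at 6.18 ± 1.24, EIF3C at 4.29 ± 1.77 and EIF4A1 at 1.62 ± 0.448 TPM.

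**Figure D2:**
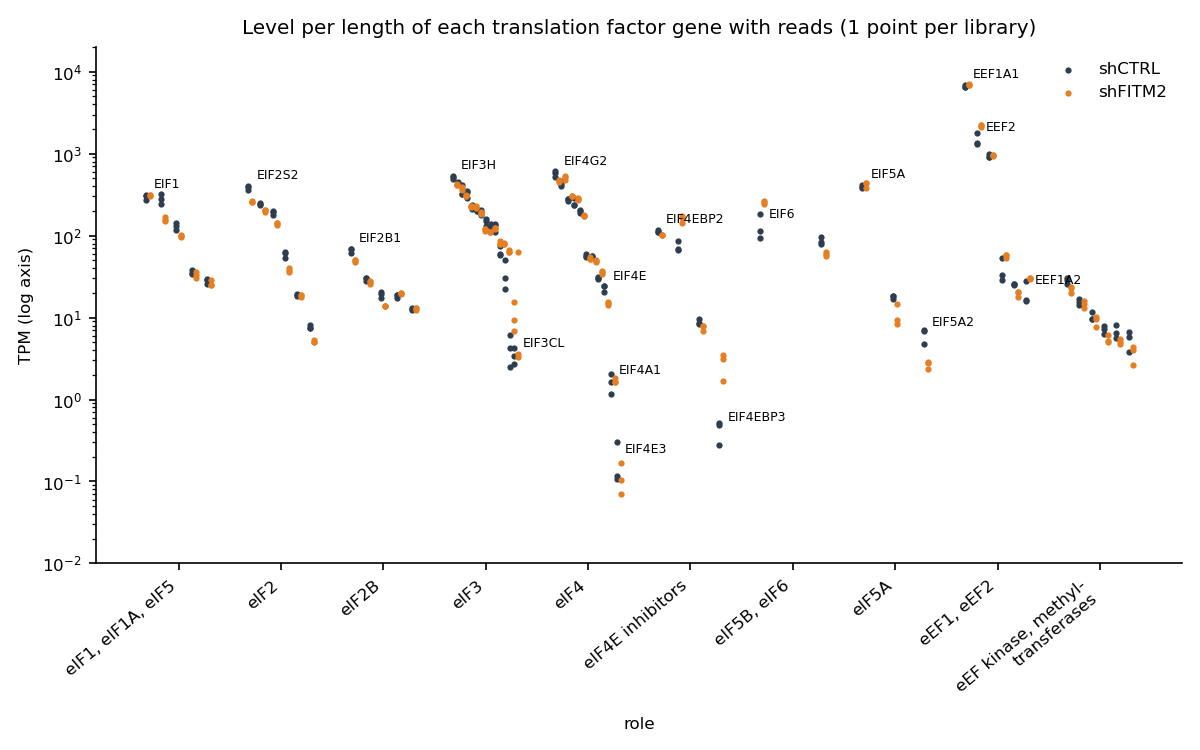
TPM on a log axis of every translation factor gene with reads, by role, with 1 point per library. Each gene has its shCTRL points on the left and shFITM2 points on the right, genes within a role are ordered by their shCTRL mean, and 17 genes are named. EEF1A1 lies above all other genes, and EIF3CL has a single shFITM2 library far above the rest.

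Some of these low values belong to genes that share sequence or exons with others, and how the authors' counting treated such reads is not given in the sources used here. EIF4A1, the helicase of eIF4F, had 292 reads over the 6 libraries. Of its exon bases 48.6% lie in exons of other genes on the same strand, and every 50-base stretch of its GENCODE transcript occurs in transcripts of other genes. EEF1G, a subunit of the eEF1 exchange complex, had no read, and 99.9% of its exon bases lie within AP002990.1 on the same strand, which had 357 reads. EIF4EBP3 shares 71.8% of its 50-base stretches with ANKHD1-EIF4EBP3 and had 36 reads. The levels of these genes are therefore uncertain. The order by TPM, the summed TPM of their roles given below and the share of EIF4A1 in its family carry the same uncertainty. Shared stretches also make up 45% of EEF1B2, 37.7% of EEF1AKMT2, 33.9% of EEF1E1, 32.4% of EEF2KMT, 31.7% of EIF5A and 30.6% of EIF4B. Without the 10 tested genes that share at least 30% of their 50-base stretches, 6 of 50 factor genes were higher and 20 lower in the group fit, and 7 and 20 with the GC offset.

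Many mRNAs of the translation machinery begin with a 5′ terminal oligopyrimidine tract, a C followed by a run of C and T, which is the element through which mTOR and LARP1 control their translation. Transcript starts from RefSeq (GRCh38.p14) could be matched for 53 of the factor genes. A start with C and at least 4 further pyrimidines, read on the transcribed strand, was found in 13 of them (24.5%), against 988 of 15842 protein-coding genes in the same table (6.24%). A match is a description of these letters and not a test of regulation. The sequences below show the 10 bases before and the 20 bases from the annotated start for 7 genes with the tract, in capitals, and for EIF1AX and EIF4E without it, chosen because their mRNAs recur in the results.
EEF1A1: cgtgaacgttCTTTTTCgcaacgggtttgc
EEF2: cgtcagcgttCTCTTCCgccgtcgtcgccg
EIF4B: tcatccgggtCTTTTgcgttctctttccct
EIF3F: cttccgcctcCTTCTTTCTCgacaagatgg
EIF3M: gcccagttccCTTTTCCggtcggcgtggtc
EIF4A2: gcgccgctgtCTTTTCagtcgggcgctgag
EIF2S3: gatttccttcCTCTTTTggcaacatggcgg
EIF1AX: gagtcgcggcgccatttgctgccgccgagc
EIF4E: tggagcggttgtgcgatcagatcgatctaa
These windows lie at chr6:73521013-73521042, minus strand (EEF1A1), chr19:3985444-3985473, minus strand (EEF2), chr12:53006446-53006475, plus strand (EIF4B), chr11:7987327-7987356, plus strand (EIF3F), chr11:32583821-32583850, plus strand (EIF3M), chr3:186783567-186783596, plus strand (EIF4A2), chrX:24054946-24054975, plus strand (EIF2S3), chrX:20141819-20141848, minus strand (EIF1AX) and chr4:98929114-98929143, minus strand (EIF4E). The longest tract in the 9 windows is that of EIF3F, with 10 pyrimidines, and the shortest that of EIF4B, with 5. Of the 13 genes with such a start, 3 were higher and 4 lower in the group fit, and 4 and 3 with the GC offset. Of the 34 tested genes without it, 3 were higher and 14 lower in the group fit, and 2 and 17 with the GC offset. Of all tested genes, 24.2% were higher and 24.5% lower in the group fit, and 11.8% and 17.4% with the GC offset. The genes with the tract thus went both ways in each fit, and the difference between the 2 classes was not tested. Of 9 tested genes on a list of textbook 5′ tract mRNAs, 3 were higher (EEF2, EIF3F and EIF4B) and 2 lower (EIF3E and EIF3H) in the group fit, and 4 higher and none lower with the GC offset (EEF1A1, EIF3A, EIF3F and EIF4B). With the median-GC offset 3 of the 9 were higher and none lower.

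Among the scanning and start codon factors, EIF1AX and EIF5 were lower in shFITM2, and none of the 5 tested genes was higher in the group fit. EIF1AX (ENSG00000173674, chromosome X, 20124518 to 20141844, minus strand, GRCh38), which encodes eIF1A on the X chromosome, was at 381, 427 and 324 CPM in shCTRL and 204, 212 and 227 CPM in shFITM2. The groups did not overlap, and the shCTRL libraries spread more widely than the shFITM2 libraries. Its log2 fold change was −0.81 ± 0.094 (SE, adjusted p = 0.000101) and −0.31 ± 0.046 (adjusted p = 0.000124) with the GC offset. EIF5, the GTPase-activating protein of eIF2, was at 350.4, 367 and 300.2 CPM in shCTRL and 247, 259 and 262 CPM in shFITM2, again with every shFITM2 library below every shCTRL library. It had −0.41 ± 0.079 (SE, adjusted p = 0.00152) in the group fit and −0.099 ± 0.047 (adjusted p = 0.128) with the GC offset, so of these fits it was called in the group fit alone. EIF5 was called lower with the median-GC offset, at −0.28 (adjusted p = 0.00135). EIF1, which per length stood with EIF1AX at the top of the role (299 ± 21.1 and 279 ± 39.7 TPM in shCTRL, within their SDs), was at 354, 336 and 303 CPM in shCTRL and 349, 342 and 345 CPM in shFITM2, with overlapping groups, and had 0.061 (adjusted p = 0.488) and 0.17 (adjusted p = 0.0150) with the GC offset. That call of EIF1 was lost without any 1 of the 3 shFITM2 libraries (adjusted p = 0.0511 to 0.0794). Its paralogue EIF1B stood at 20.5, 20.01 and 22.1 CPM in shCTRL and 19.5, 18.2 and 21.1 CPM in shFITM2 and EIF1AD, a protein with an eIF1A-like domain, at 26.6, 29.4 and 29.1 CPM in shCTRL and 25.7, 29.3 and 25.4 CPM in shFITM2. Both had overlapping groups and no call in either fit, but EIF1AD was called lower with the median-GC offset, at −0.33 (adjusted p = 0.0126). The summed TPM of the role was 624 ± 12.3 TPM in shFITM2 and 771 ± 69.2 TPM in shCTRL (SD, n = 3). This sum and those of the other roles were not corrected for GC content.

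All 3 subunits of eIF2, the GTPase that carries the initiator tRNA, were called lower in the group fit, and 5 of the 6 genes of the role were, against 24.5% of all tested genes. With either offset 2 of the 6 were lower, EIF2S1 and EIF2S2, against 17.4% of all genes. The beta subunit EIF2S2 (ENSG00000125977, chromosome 20, 34088298 to 34112332, minus strand) was at 326, 322 and 293 CPM in shCTRL and 208, 211 and 215 CPM in shFITM2. No library of one group reached the other, and the log2 fold change was −0.57 ± 0.066 (SE, adjusted p = 9.08e-05), or −0.41 ± 0.044 (adjusted p = 7.05e-06) with the GC offset. The alpha subunit EIF2S1 (ENSG00000134001, chromosome 14, 67359997 to 67386516, plus strand), the target of the stress kinases, was at 107, 108 and 92.3 CPM in shCTRL and 66.3, 70.8 and 63.2 CPM in shFITM2. It also had no overlap, with −0.62 ± 0.084 (SE, adjusted p = 0.000208) and −0.23 ± 0.062 (adjusted p = 0.0107) with the GC offset. The second value missed the threshold without shCTRL replicate 1, at an adjusted p of 0.0560, or shFITM2 replicate 3, at 0.0797.

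The gamma subunit EIF2S3, which binds GTP, was at 262, 259 and 253 CPM in shCTRL and 209, 219 and 219.6 CPM in shFITM2, lower in every shFITM2 library. It had −0.26 ± 0.061 (SE, adjusted p = 0.00471) in the group fit and 0.0031 ± 0.045 (adjusted p = 0.970) with the GC offset, where it was close to 0. EIF2S3B, an autosomal copy of EIF2S3, was at 6.09, 5.41 and 5.51 CPM in shCTRL and 3.73, 4.03 and 3.77 CPM in shFITM2. It had −0.56 (adjusted p = 0.0150) and −0.30 (adjusted p = 0.201) with the GC offset, and its group-fit call was lost without shCTRL replicate 1 or shFITM2 replicate 1 (adjusted p = 0.0523 and 0.0548). The coding sequences of EIF2S3 and EIF2S3B differ at 25 of 1416 bases (98.2% identity), so some of their reads cannot be assigned to one of them. EIF2A, an initiator tRNA carrier of alternative initiation, was at 256, 244 and 226 CPM in shCTRL and 170.2, 185 and 183 CPM in shFITM2, without overlap. It had −0.43 ± 0.070 (SE, adjusted p = 0.000521) and −0.065 ± 0.048 (adjusted p = 0.350), so its call too stood in the group fit alone. EIF2D stood at 46.8, 44.9 and 47.98 CPM in shCTRL and 46.8, 46.8 and 44.6 CPM in shFITM2, with overlapping groups and no call. Summed over the role, the level per length was 663 ± 12.7 TPM in shFITM2 and 906 ± 40.2 TPM in shCTRL (SD, n = 3), a ratio of 0.732 without correction for GC content.

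Of the 5 subunits of eIF2B, the exchange factor that returns eIF2 to its GTP-bound form, 2 were called lower in both fits and none was higher in either. Of all tested genes, 10.0% were called lower in both. EIF2B1, the alpha subunit (ENSG00000111361, chromosome 12, 123620406 to 123633766, minus strand), was at 76.4, 74.1 and 67.8 CPM in shCTRL and 56.1, 56.5 and 53.6 CPM in shFITM2. It had −0.39 ± 0.077 (SE, adjusted p = 0.00162) and −0.25 ± 0.061 (adjusted p = 0.00653) with the GC offset. EIF2B3, the gamma subunit (ENSG00000070785, chromosome 1, 44850522 to 44986722, minus strand), was at 20.6, 21.3 and 18.1 CPM in shCTRL and 14.5, 14.8 and 14.7 CPM in shFITM2. Its log2 fold change was −0.45 ± 0.10 (SE, adjusted p = 0.00455), and −0.45 ± 0.099 (adjusted p = 0.00288) with the GC offset, nearly the same value, at a transcript GC content of 48.8%, near the 48.7% median of all tested genes. For both genes the groups did not overlap. Of the exon bases of EIF2B1, 15.6% lie opposite exons of other genes, DDX55 among them, and reads of the 2 strands could not be told apart if the counting ignored strand.

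EIF2B5, the catalytic epsilon subunit, was at 67.1, 65.5 and 61.2 CPM in shCTRL and 55.8, 59.9 and 61.3 CPM in shFITM2. Its groups overlapped by a narrow margin, and it had −0.13 (adjusted p = 0.182) and −0.31 (adjusted p = 0.00333) with the GC offset. EIF2B4, the delta subunit, was at 31.00, 30.1 and 28.2 CPM in shCTRL and 31.6, 32.7 and 32.9 CPM in shFITM2, slightly above shCTRL in each shFITM2 library. It had 0.12 (adjusted p = 0.264) in the group fit and the opposite sign with the GC offset, −0.27 (adjusted p = 0.0319), a call lost without any of the 5 libraries other than shCTRL replicate 3 (adjusted p = 0.0646 to 0.146) and with the median-GC offset, at −0.16 (adjusted p = 0.17). EIF2B2, the beta subunit, was at 21.5, 20.2 and 21.8 CPM in shCTRL and 21.6, 21.9 and 20.8 CPM in shFITM2, with overlapping groups and no call in either fit, but it was called higher with the median-GC offset, at 0.31 (adjusted p = 0.0234). The 5 subunits of this complex thus spread from a group-fit log2 fold change of −0.45 to 0.12.

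The eIF3 complex, which holds the small subunit open and recruits the mRNA, had 14 tested genes, of which 6 were lower and 1 higher in the group fit, and 7 lower and 2 higher with the GC offset. Counts were 7 lower and none higher with the median-GC offset. Of all tested genes, 24.5% were lower and 24.2% higher in the group fit, and 17.4% and 11.8% with either offset. EIF3J, a loosely bound subunit (ENSG00000104131, chromosome 15, 44537057 to 44563029, plus strand), was at 193, 201 and 175 CPM in shCTRL and 112, 118 and 119.5 CPM in shFITM2. EIF3M (ENSG00000149100, chromosome 11, 32583798 to 32606262, plus strand) was at 309, 306 and 252 CPM in shCTRL and 178, 181 and 194 CPM in shFITM2. Neither gene's groups overlapped, and the 3 shFITM2 libraries lay close together for both. EIF3J had −0.70 ± 0.072 (SE, adjusted p = 5.74e-05) and −0.30 ± 0.045 (adjusted p = 0.000153) with the GC offset. EIF3M had −0.65 ± 0.084 (SE, adjusted p = 0.000162) and −0.23 ± 0.048 (adjusted p = 0.00235) with the GC offset.

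EIF3L (ENSG00000100129, chromosome 22, 37848868 to 37889407, plus strand) was at 199, 206 and 173 CPM in shCTRL and 146, 148 and 145 CPM in shFITM2, without overlap, and had −0.40 ± 0.075 (SE, adjusted p = 0.00127) and −0.44 ± 0.061 (adjusted p = 8.53e-05) with the GC offset. It shares 47.3% of its 50-base stretches with pseudogenes and with AL022311.1, which had 112 reads against its own 18206. EIF3I, a subunit with a WD-repeat fold, was at 227, 229.9 and 237 CPM in shCTRL and 208, 201 and 193 CPM in shFITM2, with all shFITM2 libraries below all shCTRL libraries. EIF3I had −0.20 ± 0.063 (SE, adjusted p = 0.0189) and −0.32 ± 0.045 (adjusted p = 7.91e-05) with the GC offset. Its group-fit call was lost without shFITM2 replicate 2 (adjusted p = 0.0764) or replicate 3 (adjusted p = 0.0851).

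EIF3E was at 632, 627 and 531 CPM in shCTRL and 405, 422 and 422 CPM in shFITM2 and EIF3H at 1052, 1037 and 953 CPM in shCTRL and 808, 855 and 826 CPM in shFITM2. Both were lower without overlap and were called in the group fit alone: EIF3E had −0.52 ± 0.075 (SE, adjusted p = 0.000281) and −0.10 ± 0.045 (adjusted p = 0.103) with the GC offset, and EIF3H had −0.29 ± 0.062 (SE, adjusted p = 0.00275) and 0.065 ± 0.044 (adjusted p = 0.302). EIF3H is the most abundant subunit per length in these cells. The core scaffold EIF3A was at 435, 422 and 448 CPM in shCTRL and 409, 407 and 426 CPM in shFITM2, with overlapping groups, and had −0.072 (adjusted p = 0.340) and 0.17 (adjusted p = 0.0205) with the GC offset, a call lost without any of the 5 libraries other than shCTRL replicate 3 (adjusted p = 0.0649 to 0.0878) and with the median-GC offset, at 0.13 (adjusted p = 0.0560). EIF3B, the other scaffold, was at 584, 600.1 and 656 CPM in shCTRL and 632, 624 and 595 CPM in shFITM2, also overlapping. EIF3B had 0.0085 (adjusted p = 0.928) in the group fit and −0.37 (adjusted p = 1.26e-05) with the GC offset. The calls of EIF3K and EIF3D, both lower, were likewise from the GC offset alone, at −0.38 (adjusted p = 0.00307) and −0.25 (adjusted p = 0.00106), against −0.19 and −0.076 in the group fit.

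EIF3F was the subunit called higher in both fits. It was at 176, 164 and 217 CPM in shCTRL and 232, 229 and 226 CPM in shFITM2, with no overlap and shCTRL replicate 3 nearest to shFITM2. It had 0.31 ± 0.094 (SE, adjusted p = 0.0192) and 0.64 ± 0.17 (adjusted p = 0.0489) with the GC offset. Both calls were lost without any of the 5 libraries other than shCTRL replicate 3, at adjusted p of 0.0550 to 0.0908 and 0.0629 to 0.126. The second was also lost with the median-GC offset, at 0.21 (adjusted p = 0.0761). The GC content of EIF3F was 40.6% in the transcript used for the GC offset and 51.8% as the median of its coding transcripts. EIF3G was at 32.6, 23.2 and 54.2 CPM in shCTRL and 71.1, 67.6 and 68.00 CPM in shFITM2, higher in each shFITM2 library, and had 0.91 (adjusted p = 0.0565) and 0.39 (adjusted p = 0.297) with the GC offset. With all libraries EIF3G was called higher by limma-voom (adjusted p = 0.0264), the DESeq2 test (adjusted p = 0.025) and a filter at a mean CPM of at least 1 (adjusted p = 0.0468). The wide shCTRL spread of EIF3G came with shCTRL replicate 3, which lay nearest to shFITM2. EIF3C and EIF3CL are copies on chromosome 16 that share 96.8% and 98.7% of their 50-base stretches. EIF3C had 248, 98 and 156 reads in shCTRL and 361, 591 and 251 in shFITM2 and EIF3CL had 49, 58 and 68 reads in shCTRL and 57, 60 and 1006 in shFITM2. The 1006 reads of EIF3CL in shFITM2 replicate 3 stand alone, and the reads of both genes summed run from 156 to 297 reads in shCTRL and from 418 to 1257 in shFITM2. EIF3C was called higher in the group fit without shCTRL replicate 1 (adjusted p = 0.0330) or shFITM2 replicate 3 (adjusted p = 0.0300). It was also called with all libraries by the DESeq2 test (adjusted p = 0.0223) and with a filter at a mean CPM of at least 1 (adjusted p = 0.0489). Neither gene was called in the group fit or with the GC offset, with 1.31 (adjusted p = 0.0622) for EIF3C and 2.76 (adjusted p = 0.210) for EIF3CL in the group fit. The summed TPM of the complex was 2350.1 ± 27.6 TPM in shFITM2 and 2757 ± 42.9 TPM in shCTRL (SD, n = 3).

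**Figure D3:**
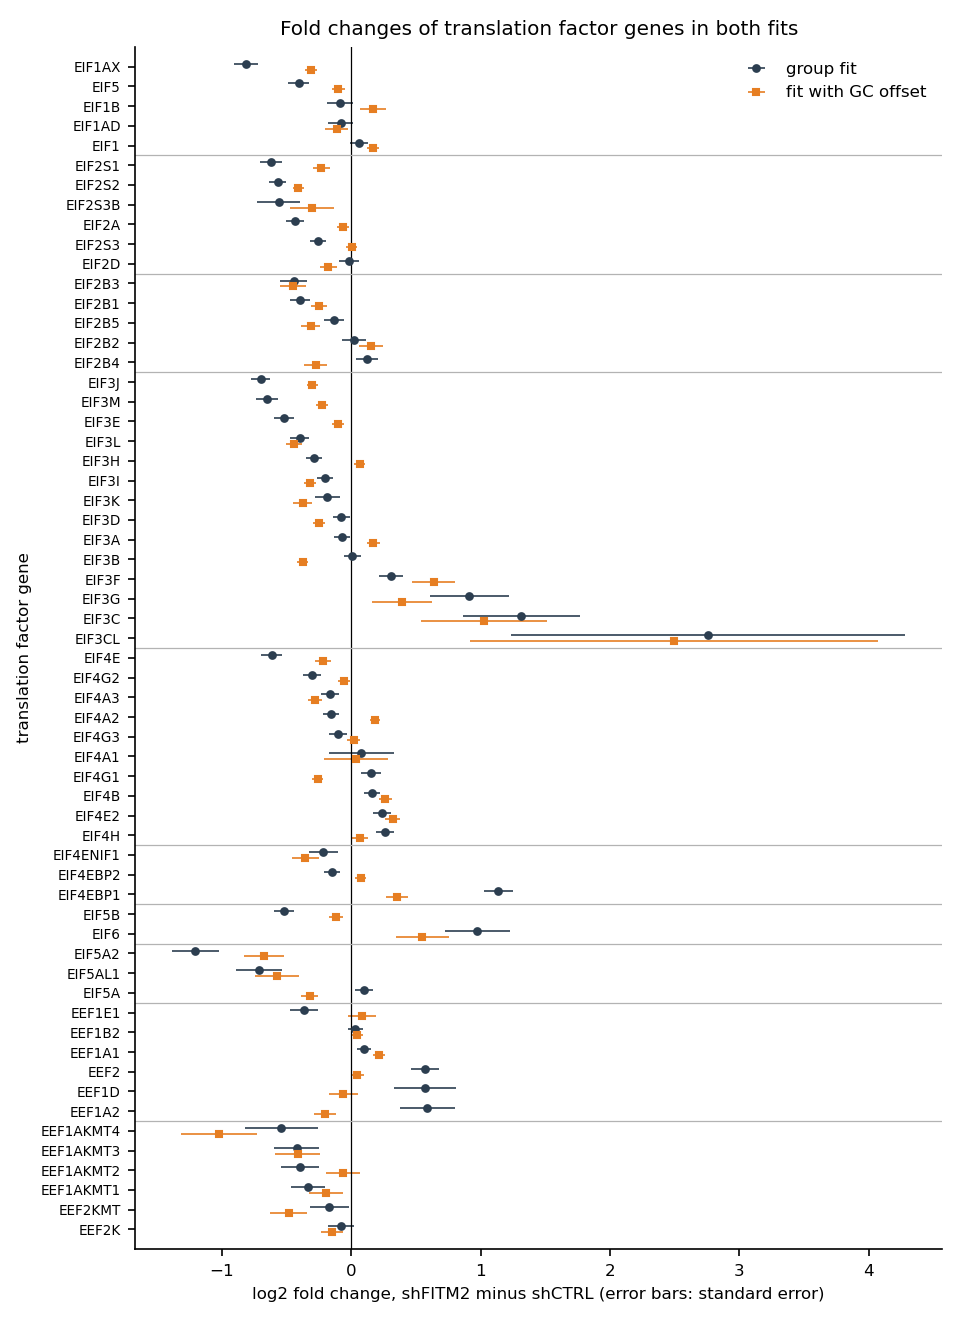
Log2 fold change of each of the 60 tested translation factor genes, shFITM2 minus shCTRL, with its standard error, in the group fit (dark circles) and with the GC offset (orange squares), grouped by role in the same order as the heat map. EIF5A2 has the lowest group-fit value at −1.21, EIF4EBP1 is at 1.14, and EIF3CL has the highest value and the widest error bar.

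In the cap-binding group, EIF4E was lower in shFITM2 while EIF4E2 and EIF4B were higher, in both fits. EIF4E, the cap-binding subunit of eIF4F (ENSG00000151247, chromosome 4, 98871684 to 98930637, minus strand), was at 105, 102 and 88.3 CPM in shCTRL and 64.1, 66.6 and 61.9 CPM in shFITM2. The groups did not overlap, and shCTRL replicate 3 was the lowest of its group. EIF4E had −0.62 ± 0.083 (SE, adjusted p = 0.000197) and −0.22 ± 0.062 (adjusted p = 0.0140) with the GC offset, the latter lost without shCTRL replicate 1 (adjusted p = 0.0835) or shFITM2 replicate 3 (adjusted p = 0.0946). EIF4E2, a cap-binding homologue that represses translation (ENSG00000135930, chromosome 2, 232550052 to 232583644, plus strand), was at 66.8, 67.2 and 66.5 CPM in shCTRL and 81.8, 79.01 and 75.1 CPM in shFITM2, without overlap. EIF4E2 had 0.24 ± 0.071 (SE, adjusted p = 0.0169) and 0.32 ± 0.058 (adjusted p = 0.000754) with the GC offset. Leaving out shCTRL replicate 1 or either of shFITM2 replicates 1 and 2 ended its group-fit call (adjusted p = 0.0644 to 0.0935), and 24.2% of its exon bases lie opposite exons of other genes. The third homologue, EIF4E3, had 0.236 to 1.01 CPM and was not tested.

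Among the helicase cofactors, EIF4B (ENSG00000063046, chromosome 12, 53006158 to 53042209, plus strand) was at 535, 487 and 524 CPM in shCTRL and 577, 579 and 573 CPM in shFITM2, without overlap. It had 0.16 ± 0.061 (SE, adjusted p = 0.0467) and 0.26 ± 0.048 (adjusted p = 0.000683) with the GC offset. The group-fit call was at the threshold: it was lost without any library other than shCTRL replicate 3 (adjusted p = 0.0783 to 0.191), and also with library totals in place of TMM, with no expression filter and with the DESeq2 test. EIF4H was at 427, 440.1 and 393 CPM in shCTRL and 527, 511 and 469.6 CPM in shFITM2, with every shFITM2 library above shCTRL. EIF4H had 0.26 ± 0.070 (SE, adjusted p = 0.00953) in the group fit, lost without shFITM2 replicate 1 or 2 (adjusted p = 0.0658 and 0.0566), and 0.066 ± 0.062 (adjusted p = 0.469) with the GC offset.

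The scaffold EIF4G1 was at 608, 594 and 715 CPM in shCTRL and 731, 711 and 688 CPM in shFITM2, with overlapping groups. It had 0.15 ± 0.076 (SE, adjusted p = 0.119) in the group fit and −0.26 ± 0.042 (adjusted p = 0.000248) with the GC offset, so the sign turned with the offset. EIF4G2, a scaffold homologue that does not bind eIF4E, was at 1563, 1610.1 and 1385 CPM in shCTRL and 1182, 1242 and 1267 CPM in shFITM2, without overlap, and had −0.30 ± 0.069 (SE, adjusted p = 0.00378) and −0.057 ± 0.044 (adjusted p = 0.367) with the GC offset. It was called lower with the median-GC offset, at −0.25 (adjusted p = 0.00174). EIF4G3 was at 177, 160.0 and 164 CPM in shCTRL and 153, 153 and 161 CPM in shFITM2, overlapping, with no call in either fit. The helicase EIF4A2 was at 377, 384 and 349 CPM in shCTRL and 324, 334 and 337 CPM in shFITM2, lower in each shFITM2 library, with −0.16 (adjusted p = 0.0584) and the opposite sign with the GC offset, 0.18 (adjusted p = 0.00359). That call of EIF4A2 was lost with the median-GC offset, where the value was −0.097 (adjusted p = 0.120). EIF4A3, the homologue in the exon junction complex, had −0.17 (adjusted p = 0.0753) and −0.28 (adjusted p = 0.00129) with the GC offset. EIF4A1 was at 3.39, 2.65 and 1.88 CPM in shCTRL and 2.69, 2.70 and 3.01 CPM in shFITM2, a handful of reads with overlapping groups. The summed TPM of the cap-binding group was 1887 ± 24.02 TPM in shFITM2 and 1896 ± 52.1 TPM in shCTRL (SD, n = 3), a ratio of 0.995.

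Of the eIF4E-binding proteins, EIF4EBP1 rose in shFITM2 in both fits. EIF4EBP1 encodes 4E-BP1, which blocks the binding of eIF4G to eIF4E until mTOR phosphorylates it (ENSG00000187840, chromosome 8, 38030341 to 38060365, plus strand). It had 416, 408 and 479 reads in shCTRL and 986, 993 and 805 in shFITM2, or 22.04, 22.1 and 28.1 CPM in shCTRL and 54.1, 57.1 and 47.5 CPM in shFITM2. Every shFITM2 library lay well above every shCTRL library, and shCTRL replicate 3 was the highest of its group. The log2 fold change was 1.14 ± 0.11 (SE, adjusted p = 5.34e-05), and 0.35 ± 0.084 (adjusted p = 0.00503) with the GC offset. Its transcript GC content of 65.5% is the highest of the 60 tested factor genes after that of EEF1A2, and the offset took its fold change from 2.20 to 1.28.

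EIF4EBP2, the second binding protein, was at 252, 259.7 and 242 CPM in shCTRL and 227, 228 and 225 CPM in shFITM2, lower in each shFITM2 library but not called, with −0.15 (adjusted p = 0.0616) and 0.073 (adjusted p = 0.227) with the GC offset. EIF4EBP3 was at 0.106, 0.108 and 0.0587 CPM in shCTRL and 0.659, 0.748 and 0.354 CPM in shFITM2, without overlap. It was below the filter with all libraries, and shares most of its sequence with a readthrough gene as described above. With 1 library left out it passed the filter in 4 group fits and was called higher in each (highest adjusted p = 0.0255, without shCTRL replicate 1). With the GC offset it was called in 1 such fit (highest adjusted p = 0.0738, without shCTRL replicate 3). EIF4ENIF1, which carries eIF4E into the nucleus and to P-bodies, was at 15.8, 15.9 and 17.9 CPM in shCTRL and 14.9, 12.9 and 14.9 CPM in shFITM2. Its shFITM2 libraries lay below its shCTRL libraries. It had −0.22 (adjusted p = 0.130) and −0.36 (adjusted p = 0.0169) with the GC offset, the latter lost without shFITM2 replicate 2 (adjusted p = 0.104) and with the median-GC offset, at −0.26 (adjusted p = 0.0734).

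The genes of the late steps of initiation moved apart in the group fit. EIF5B, the GTPase of subunit joining, was at 196, 229.8 and 201 CPM in shCTRL and 145, 139 and 153 CPM in shFITM2, and EIF6, which keeps free large subunits from joining small ones, was at 57.7, 45.8 and 91.04 CPM in shCTRL and 127, 133 and 121 CPM in shFITM2. Neither gene's groups overlapped, and shCTRL replicate 3 stood well above the other shCTRL libraries for EIF6. EIF5B had −0.52 ± 0.077 (SE, adjusted p = 0.000322) and EIF6 had 0.97 ± 0.25 (SE, adjusted p = 0.0224). With the GC offset neither was called, at −0.12 ± 0.054 (adjusted p = 0.115) for EIF5B and 0.55 ± 0.21 (adjusted p = 0.124) for EIF6. The group-fit call of EIF6 ended when shCTRL replicate 1 or either of shFITM2 replicates 1 and 2 was left out (adjusted p = 0.0526 to 0.0579), and with no expression filter (adjusted p = 0.107). With the GC offset EIF6 was called higher without shCTRL replicate 3 (adjusted p = 1.50e-13).

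Both minor genes of the eIF5A family were lower in shFITM2 in both fits. EIF5A2 (ENSG00000163577, chromosome 3, 170888415 to 170908693, minus strand), an isoform gene of eIF5A, was at 11.8, 11.8 and 8.09 CPM in shCTRL and 4.78, 4.08 and 4.90 CPM in shFITM2, without overlap. It had −1.21 ± 0.18 (SE, adjusted p = 0.000334) and −0.68 ± 0.16 (adjusted p = 0.00388) with the GC offset. EIF5AL1 was at 20.03, 21.3 and 21.3 CPM in shCTRL and 9.94, 11.1 and 17.2 CPM in shFITM2, without overlap and with shFITM2 replicate 3 nearest to shCTRL. It had −0.71 ± 0.18 (SE, adjusted p = 0.00868) and −0.58 ± 0.17 (adjusted p = 0.0276) with the GC offset, a call lost without 4 of the 6 libraries (both shCTRL replicates 1 and 2 and both shFITM2 replicates 1 and 2, adjusted p = 0.0691 to 0.109). The main gene EIF5A was at 332, 351 and 336 CPM in shCTRL and 379, 381 and 329 CPM in shFITM2, with overlapping groups. EIF5A had 0.097 ± 0.071 (SE, adjusted p = 0.285) and the opposite sign with the GC offset, −0.32 ± 0.069 (adjusted p = 0.00451). EIF5A and EIF5AL1 differ at 5 of 462 coding bases (98.9% identity), with an identical run of 192 bases. To show how little separates their reads, coding bases 46 to 135 of the GENCODE 29 transcripts (GRCh38) are given with the 3 bases that differ there in capitals.
EIF5A: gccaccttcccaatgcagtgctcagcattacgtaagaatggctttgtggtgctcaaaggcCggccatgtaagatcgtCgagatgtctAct
EIF5AL1: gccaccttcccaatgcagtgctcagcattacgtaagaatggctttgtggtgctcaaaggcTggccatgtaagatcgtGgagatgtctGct
A read that covers none of the differing bases matches both genes, so the EIF5AL1 counts, which are far below those of EIF5A, are uncertain. The sum of both genes was 351.7, 372 and 357 CPM in shCTRL and 389, 391.9 and 346 CPM in shFITM2, with overlapping groups.

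Among the elongation factors, EEF2 was higher and EEF1E1 lower in the group fit, and EEF1A1 was higher with the GC offset. EEF2 (ENSG00000167658, chromosome 19, 3976056 to 3985469, minus strand) was at 1652, 1639.9 and 2205 CPM in shCTRL and 2750.4, 2773 and 2623 CPM in shFITM2, without overlap and with shCTRL replicate 3 nearest to shFITM2. It had 0.57 ± 0.11 (SE, adjusted p = 0.00246) and 0.046 ± 0.049 (adjusted p = 0.529) with the GC offset. EEF2 was called higher with the median-GC offset, at 0.28 (adjusted p = 0.0179). EEF1A1 (ENSG00000156508, chromosome 6, 73515750 to 73523797, minus strand), the most abundant gene of the set, was at 11925, 11602 and 12311 CPM in shCTRL and 12687, 12815 and 12849.7 CPM in shFITM2, with every shFITM2 library above every shCTRL library by a small margin. EEF1A1 had 0.098 ± 0.054 (SE, adjusted p = 0.154) in the group fit and 0.22 ± 0.047 (adjusted p = 0.00274) with the GC offset. It shares 29.3% of its 50-base stretches with other genes, its own pseudogenes among them.

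EEF1A2, its paralogue of muscle and nerve, was at 25.1, 23.6 and 42.3 CPM in shCTRL and 45.01, 46.3 and 45.1 CPM in shFITM2. The groups did not overlap, and 2 shCTRL libraries stood far below the other one. EEF1A2 had 0.59 ± 0.21 (SE, adjusted p = 0.0562) and −0.20 ± 0.082 (adjusted p = 0.0758) with the GC offset, with no call in either. It was called in the group fit without shCTRL replicate 3 (adjusted p = 6.44e-12) and under DESeq2 size factors, library totals, no filter, the DESeq2 test and limma-voom (adjusted p of 0.000104 to 0.0491). EEF1D, a subunit of the exchange complex, was at 95.4, 81.6 and 153 CPM in shCTRL and 168, 167 and 156 CPM in shFITM2, with 0.57 (adjusted p = 0.0987) and −0.062 (adjusted p = 0.743) with the GC offset, and 34.0% of its exon bases lie opposite exons of other genes. EEF1B2 was at 541, 531 and 573 CPM in shCTRL and 566, 549.8 and 565 CPM in shFITM2, with overlapping groups and no call. EEF1E1, a scaffold of the multisynthetase complex in spite of its name, was at 16.6, 16.3 and 16.5 CPM in shCTRL and 11.5, 13.4 and 13.4 CPM in shFITM2, without overlap. It had −0.37 ± 0.11 (SE, adjusted p = 0.0162), lost without shFITM2 replicate 1 (adjusted p = 0.0823), and 0.086 ± 0.11 (adjusted p = 0.606) with the GC offset. The summed TPM of the elongation factors was 10233 ± 39.6 TPM in shFITM2 and 9076 ± 515 TPM in shCTRL (SD, n = 3), and the 3 shCTRL libraries spread more than the 3 shFITM2 libraries. For the roles without a sum in the text, the ratio of shFITM2 to shCTRL was 1.45 for EIF5B with EIF6 and 1.39 for the eIF4E inhibitors and transporter. It was 1.03 for eIF5A, 0.846 for eIF2B and 0.818 for the eEF kinase and methyltransferases.

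Among the eEF2 kinase and the methyltransferases of eEF1A and eEF2, no gene was called higher in either fit. EEF2K, the kinase that inhibits eEF2, was at 35.4, 37.00 and 41.1 CPM in shCTRL and 38.7, 36.7 and 31.8 CPM in shFITM2, with overlapping groups, and had −0.080 (adjusted p = 0.531) and −0.15 (adjusted p = 0.217) with the GC offset. The eEF1A lysine methyltransferase EEF1AKMT1 was at 10.6, 11.6 and 12.5 CPM in shCTRL and 8.23, 9.55 and 9.73 CPM in shFITM2 and EEF1AKMT2 at 9.48, 10.17 and 8.21 CPM in shCTRL and 6.75, 6.61 and 7.84 CPM in shFITM2. Both lay lower in each shFITM2 library. EEF1AKMT1 had −0.34 ± 0.13 (SE, adjusted p = 0.0494), lost without any 1 of the 6 libraries (adjusted p = 0.0501 to 0.178), and EEF1AKMT2 had −0.40 ± 0.15 (SE, adjusted p = 0.0404), lost without 4 of them (replicates 1 and 2 of each group, adjusted p = 0.0959 to 0.137). Neither was called with the GC offset. EEF1AKMT4 had 62, 67 and 36 reads in shCTRL and 45, 26 and 38 in shFITM2, with overlapping groups, and −0.54 (adjusted p = 0.131) and −1.03 (adjusted p = 0.0150) with the GC offset, the latter lost without shCTRL replicate 1 or 2 or shFITM2 replicate 2 (adjusted p = 0.0627 to 0.0855). EEF2KMT, which methylates eEF2, had −0.49 (adjusted p = 0.0175) with the GC offset alone, lost without shFITM2 replicate 1 (adjusted p = 0.106). EEF1AKMT3 was at 6.46, 7.84 and 5.51 CPM in shCTRL and 4.56, 4.89 and 5.37 CPM in shFITM2 and was called in neither fit, but it was called lower with the median-GC offset, at −0.59 (adjusted p = 0.0211).

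Transcript GC content ran from 34.3% (EIF5A2) to 66.4% (EEF1A2) in the tested factor genes. In the group fit the 7 higher genes had a median GC of 52.7% and the 23 lower genes 41.0%, against 58.9% and 41.1% for all tested genes called higher and lower. After the offset the correlation of GC content with the fold change was −0.025 over the factor genes, against 0.0031 over all genes. Of the lower genes, EIF2B3, EIF3L and EIF3I lie near the middle of the GC range (48.8%, 49.6% and 51.2%), and were called lower in the group fit and with either offset. EIF2B3 had −0.33 (adjusted p = 0.0168) with the median-GC offset, EIF3L had −0.32 (adjusted p = 0.000521) and EIF3I had −0.44 (adjusted p = 7.32e-06). Per 10 percentage points of GC, log2 expression of the factor genes sloped by −0.29, −0.35 and −0.071 for shCTRL and 0.24, 0.23 and 0.24 for shFITM2. The GC slope of shCTRL replicate 3 was thus between those of the other libraries. A true difference between the cells that tracks GC content would be taken out by the offset as well.

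**Figure D4:**
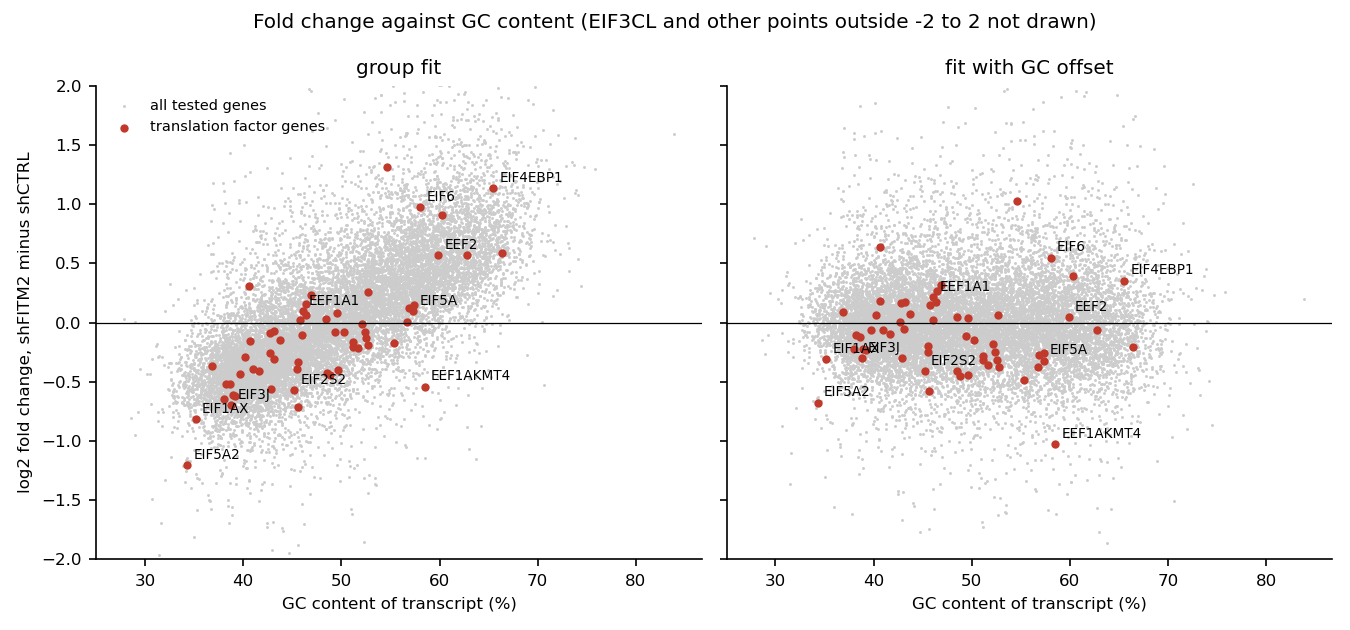
Log2 fold change, shFITM2 minus shCTRL, against the GC content of the transcript (%) for all tested genes with a GC value (grey) and the translation factor genes (red), in the group fit (left) and with the GC offset (right). The factor genes follow the rising trend on the left and show no such trend on the right, where the Spearman correlation is −0.025 and EEF1AKMT4 is lowest. EIF3CL lies above the plotted range.

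Families, 7 in all, of interchangeable or homologous genes were compared by the share of 1 gene in the summed TPM of the family, which does not depend on library scaling. With 3 against 3 libraries the exact two-sided permutation test cannot go below p = 0.1, and the adjusted p over the 7 families cannot pass 0.05. EIF4E made up 44.4, 43.5 and 40.3% (shCTRL) and 28.5, 30.03 and 29.6% (shFITM2) of EIF4E, EIF4E2 and EIF4E3. The groups stood far apart, with a mean difference of −13.4 percentage points (exact permutation p = 0.1, adjusted p = 0.175). By raw counts, which are not divided by gene length, the share of EIF4E was 56.9 to 60.9% in shCTRL and 43.8 to 45.6% in shFITM2. That was a difference of −14.4 points. EIF4EBP1 made up 37.2, 36.5 and 43.9% (shCTRL) and 61.7, 62.8 and 58.8% (shFITM2) of EIF4EBP1 and EIF4EBP2. Here too the groups did not overlap, with a difference of 21.9 points (exact permutation p = 0.1, adjusted p = 0.175). By raw counts the share of EIF4EBP1 was 7.83 to 10.4% in shCTRL and 17.4 to 20.01% in shFITM2, a difference of 10.15 points. EIF5A made up 98.2, 98.3 and 98.8% (shCTRL) and 99.37, 99.46 and 99.26% (shFITM2) of EIF5A and EIF5A2, and EEF1A1 made up 99.75, 99.75 and 99.59% (shCTRL) and 99.57, 99.56 and 99.58% (shFITM2) of EEF1A1 and EEF1A2. Both pairs also had no overlap, at differences of 0.905 and −0.124 points, and of 1.76 points for EIF5A by raw counts. The shares of EIF1 in EIF1 and EIF1B, EIF4G1 in EIF4G1 and EIF4G3, and EIF4A1 in EIF4A1 and EIF4A2 overlapped between the groups, with differences of 1.01, 2.58 and 0.153 points. These shares were not corrected for GC content, in which the genes of a family differ: 65.5% for EIF4EBP1 and 43.7% for EIF4EBP2, and 38.97% for EIF4E and 46.9% for EIF4E2.

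**Figure D5:**
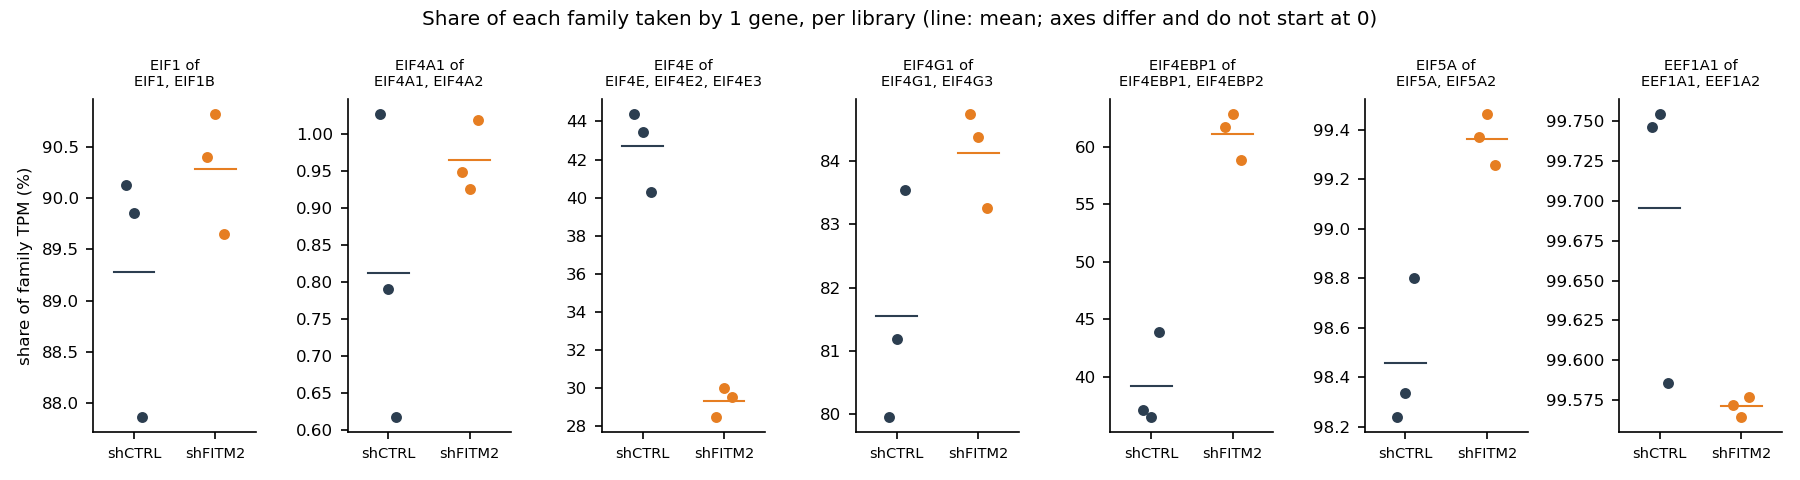
Share (%) of 1 gene in the summed TPM of its family in each library (points) with the group mean (line), in 7 panels with separate axes that do not start at 0. The shCTRL and shFITM2 points do not overlap for EIF4E, EIF4EBP1, EIF5A and EEF1A1, and overlap for EIF1, EIF4A1 and EIF4G1.

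Genes that act on these factors or beside them were taken from 8 lists. Of their 56 tested genes, 9 were higher and 24 lower in the group fit, and 6 and 20 with the GC offset. Of all tested genes, 24.2% were higher and 24.5% lower in the group fit, and 11.8% and 17.4% with the GC offset. The counts of each list below are to be read beside these shares. Of the eIF2 alpha kinases and phosphatase subunits, PPP1R15A (GADD34), the stress-induced subunit that removes the phosphate from eIF2 alpha, was at 26.2, 22.6 and 31.9 CPM in shCTRL and 55.9, 63.5 and 63.6 CPM in shFITM2. Its groups stood far apart, with 1.18 ± 0.12 (SE, adjusted p = 5.24e-05) and 0.71 ± 0.086 (adjusted p = 2.19e-05) with the GC offset. The kinases EIF2AK2 (PKR) and EIF2AK4 (GCN2) were lower in both fits, at −0.58 (adjusted p = 0.000152) and −0.18 (adjusted p = 0.0276) for EIF2AK2 and −0.27 (adjusted p = 0.0121) and −0.20 (adjusted p = 0.0278) for EIF2AK4. With the GC offset the EIF2AK2 call held in 3 of the 6 fits that leave out a library (highest adjusted p = 0.128, without shFITM2 replicate 3) and that of EIF2AK4 in 2 (highest adjusted p = 0.116, without shFITM2 replicate 2). In the group fit, EIF2AK4 held in 5 (highest adjusted p = 0.0641, without shFITM2 replicate 2), and with the median-GC offset it was not called, at −0.12 (adjusted p = 0.200). The constitutive phosphatase subunit PPP1R15B and the kinases EIF2AK1 and EIF2AK3 were not called in either fit. With the median-GC offset PPP1R15B was called higher, at 0.16 (adjusted p = 0.0275), and EIF2AK1 lower, at −0.17 (adjusted p = 0.00788).

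Of the 8 genes of cap control through mTOR, S6 kinase and MNK, 3 were higher and 1 lower in the group fit, and 2 and 3 with the GC offset. PDCD4, an inhibitor of eIF4A, was at 44.7, 39.2 and 42.5 CPM in shCTRL and 59.9, 62.2 and 60.3 CPM in shFITM2, without overlap, and had 0.53 ± 0.081 (SE, adjusted p = 0.000384) and 0.92 ± 0.081 (adjusted p = 1.16e-06) with the GC offset. MKNK1, which phosphorylates eIF4E, had 0.49 (adjusted p = 0.00146) and 0.31 (adjusted p = 0.0102), the latter lost in 1 of the 6 fits that leave out a library (highest adjusted p = 0.0571, without shCTRL replicate 1). RPS6KB2 was higher in the group fit alone, with 0.63 (adjusted p = 0.000829) and −0.0043 (adjusted p = 0.974) with the GC offset. RPS6KB1 was lower in the group fit alone, at −0.33 (adjusted p = 0.0366), a call held in 2 of the 6 fits that leave out a library. MKNK2, MTOR and RPTOR were lower with either offset and not called in the group fit. With the GC offset they had −0.34 (adjusted p = 6.49e-05), −0.30 (adjusted p = 0.000235) and −0.29 (adjusted p = 0.0121). The RPTOR call with the GC offset held in 3 of the 6 such fits.

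Termination and ribosome recycling had 5 tested genes, with 4 lower and 1 higher in the group fit, and 2 and 1 with the GC offset. ABCE1, the ATPase that splits ribosomes and also binds eIF3J, was at 256, 277 and 236 CPM in shCTRL and 134, 139.6 and 150.1 CPM in shFITM2, without overlap. It had −0.86 ± 0.078 (SE, adjusted p = 3.40e-05) and −0.45 ± 0.044 (adjusted p = 3.50e-06) with the GC offset. The release factor ETF1 (eRF1) had −0.48 (adjusted p = 0.000186) and −0.25 (adjusted p = 0.000512). GSPT1 (eRF3a), at −0.48 (adjusted p = 0.000169), was not called with the GC offset but was called lower with the median-GC offset, at −0.19 (adjusted p = 0.0168), and PELO, which rescues stalled ribosomes, was higher in both fits, at 0.33 (adjusted p = 0.00524) and 0.48 (adjusted p = 0.000115).

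Of 7 accessory initiation factors, 6 were lower in the group fit and 2 with the GC offset. The helicase DHX29 had −0.68 (adjusted p = 0.000129) and −0.33 (adjusted p = 0.00371), the helicase DDX3X −0.36 (adjusted p = 0.000871) and −0.080 (adjusted p = 0.177), and BZW1, a mimic of eIF5, −0.53 (adjusted p = 0.000490) and −0.13 (adjusted p = 0.0450), with the latter call held in 1 of the 6 fits that leave out a library (highest adjusted p = 0.174, without shCTRL replicate 1). Of the 7 poly(A)-binding proteins and partners, LARP4 was lower and PAIP1 higher in both fits, at −0.66 (adjusted p = 0.000127) and −0.18 (adjusted p = 0.0163) for LARP4 and 0.19 (adjusted p = 0.0404) and 0.45 (adjusted p = 8.89e-06) for PAIP1. The LARP4 call with the GC offset held in 3 of the 6 fits that leave out a library (highest adjusted p = 0.0780, without shFITM2 replicate 3), and the PAIP1 call in the group fit in 2 (highest adjusted p = 0.145, without shFITM2 replicate 2). LARP1, the reader of the 5′ pyrimidine tract, was at 383, 355 and 406 CPM in shCTRL and 335, 354 and 343 CPM in shFITM2, with −0.15 (adjusted p = 0.0874) and −0.28 (adjusted p = 0.000414) with the GC offset.

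The 9 genes that make the diphthamide of eEF2 and the hypusine of eIF5A had 2 higher and 4 lower in the group fit, and none higher and 3 lower with the GC offset. DNAJC24 (DPH4) was lower in both, at −0.68 (adjusted p = 0.00188) and −0.35 (adjusted p = 0.0334), the latter held in 2 of the 6 fits that leave out a library (highest adjusted p = 0.148, without shFITM2 replicate 2) and lost with the median-GC offset, at −0.31 (adjusted p = 0.0575), and DPH3 in the group fit alone, at −0.71 (adjusted p = 0.00179) against −0.32 (adjusted p = 0.0563). DPH7, also of the diphthamide pathway, was higher in the group fit alone, at 0.40 (adjusted p = 0.00458) against −0.061 (adjusted p = 0.693). Of 9 mitochondrial translation factors, 1 was higher and 5 lower in the group fit, and none higher and 3 lower with the GC offset, or 5 lower with the median-GC offset. The elongation factor GFM1 had −0.62 (adjusted p = 0.000101) and −0.30 (adjusted p = 0.000737), MTRF1, a release factor, −0.69 (adjusted p = 0.000784) and −0.28 (adjusted p = 0.0295), and MTIF2, an initiation factor, −0.50 (adjusted p = 0.000724) and −0.20 (adjusted p = 0.0379). With the GC offset the MTRF1 and MTIF2 calls each held in 1 of the 6 fits that leave out a library (highest adjusted p = 0.121, without shFITM2 replicate 2, and highest adjusted p = 0.134, without shFITM2 replicate 1). Of 5 selenocysteine genes, SEPSECS was lower in the group fit alone, at −0.25 (adjusted p = 0.0462), held in 1 of the 6 such fits (highest adjusted p = 0.165, without shFITM2 replicate 1), and the elongation factor EEFSEC with the GC offset alone, at −0.44 (adjusted p = 0.00211).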

How the data were processed

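Total RNA of 6 HT29 samples was sequenced with a strand-specific kit, per the labels' protocols. The submitters' processing notes list HISAT2 2.0.5, StringTie 1.3.3b, featureCounts 1.5.0-p3, DESeq2 1.16.1 and hg19. The positions and lengths in the deposited table are those of GENCODE 29 on GRCh38 for 58735 of 58735 Ensembl genes, and these are printed here. The deposited values are raw counts of reads per gene. How strand and reads with several matches were handled in counting is not given in the sources used here.

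Counts were tested with edgeR 4.0.16 (R 4.3.3): TMM scaling, a filter on low counts (filterByExpr, minimum count 10 and total 15), robust quasi-likelihood F-tests on 14809 genes and Benjamini-Hochberg adjustment over all of them, with calls at an adjusted p under 0.05. CPM use TMM library sizes, and TPM the deposited gene length. The GC offset was a smoothing spline with 6 degrees of freedom on GC content, read from 1 GENCODE transcript of each gene (a coding one where there is one, then the longest), for 14635 genes. The fits were tested on simulated data. Alternatives were DESeq2 size factors, library totals, other filters, DESeq2 1.42.0, limma-voom 3.58.1, a replicate block, and leaving out each library. An offset with the median GC of coding transcripts was chosen after seeing the data.

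The factor genes and lists were chosen with earlier results of these data known. Values in every library are given for the 4 genes with the smallest p of each role, its most abundant gene and the families, and for others where a result turns on them. Of each pathway list up to 3 genes with the smallest p are named. Others, PELO, MTOR, MKNK2, RPTOR and RPS6KB1 among them, were named after their values were seen.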

Additional observations from a re-analysis of the deposited data

How the results depend on the processing

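The group fit called 30 factor genes with DESeq2 size factors (8 higher, 22 lower), 30 with library totals (7 and 23), 28 with no filter (7 and 21), 32 with a mean CPM of at least 1 (9 and 23), 30 with the DESeq2 test (9 and 21) and 31 with limma-voom (9 and 22). The fits that leave out 1 library called 2 to 13 higher and 19 to 28 lower, and 5 to 12 higher and 19 to 28 lower with the GC offset. The lowest counts of higher calls came without shFITM2 replicate 1 or 2, in both fits, and the highest without shCTRL replicate 3. In the group fit, 17.1%, 17.4% and 29.6% of all tested genes were higher without these 3 libraries in turn. Shares of all tested genes are not given for the size factors, library totals, other filters, other tests and the replicate block. A change of the factor genes in those settings cannot be told from a change over all genes. With the median GC of coding transcripts, chosen after seeing the data, 7 were higher and 25 lower, against 11.8% and 17.4% of all tested genes. Same-numbered libraries did not deviate together (r = −0.041, −0.0066 and −0.065 for numbers 1 to 3 over 14809 genes), and no library correlated best with its own number. With the replicate block 28 were called (8 higher, 20 lower), and 30 with the block and the GC offset (7 and 23). With the block EIF3I, EIF4B, EIF4E2, EEF1AKMT1 and EEF1AKMT2 were not called (adjusted p = 0.0545 to 0.126), EEF1D, EIF3G and EEF1A2 were called higher (adjusted p = 0.0157 to 0.0496), and with the block and the GC offset EIF3F was not called (adjusted p = 0.0773).

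The sign of the log2 fold change turned with the GC offset for 14 genes: EIF3H (0.065), EIF4G1 (−0.26), EIF3B (−0.37), EIF3A (0.17), EIF4A2 (0.18), EIF5A (−0.32), EIF4EBP2 (0.073), EIF2S3 (0.0031), EIF4G3 (0.019), EEF1D (−0.062), EEF1A2 (−0.20), EIF2B4 (−0.27), EIF1B (0.17) and EEF1E1 (0.086). With the median GC it turned against the other offset for EIF3H (−0.091), EIF4A2 (−0.097), EIF4G3 (−0.00050), EEF1A2 (0.0026) and EIF4A1 (−0.0089). When each library was left out in turn, the value crossed 0 for EIF3B (−0.030 to 0.053), EIF1 (−0.0047 to 0.11), EIF4A1 (−0.12 to 0.30), EIF2D (−0.04745 to 0.0066) and EIF2B2 (−0.021 to 0.040), and with the GC offset for EIF4H (−0.0051 to 0.12), EEF1D (−0.16 to 0.080), EIF4A1 (−0.16 to 0.25, with −0.013 without shFITM2 replicate 3), EIF2S3 (−0.023 to 0.027, with −0.0082 without shFITM2 replicate 2), EIF4G3 (−0.025 to 0.053) and EIF3CL (−0.26 to 3.025). The differences in family share by raw counts were −14.4 points for EIF4E, 10.15 points for EIF4EBP1 and 1.76 points for EIF5A. The cause of the other changes was not tested.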
